A study of Mus musculus with 10 samples.

Results

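The ErbB receptors and their ligands of the epidermal growth factor (EGF) family were followed through the count table of Actn2 knockout cardiomyocytes by gene symbol. The set holds 9 of the 23337 genes of the table: the receptor genes Egfr, Erbb2, Erbb3 and Erbb4, the ligand genes Hbegf, Tgfa, Nrg1 and Nrg4, and Errfi1, whose product inhibits active ErbB kinases. All 9 were found. The libraries came from 10 mice in 2 groups of 5, which the series text calls biological replicates. Knockout animals were of genotype Actn2-FF, with both alleles of the alpha-actinin-2 gene floxed, and heterozygote animals were Actn2-F+, with a floxed and a normal allele. Both groups received the virus AAV9-cTNT-Cre on postnatal day 1, which expresses the recombinase Cre from the cardiac troponin T promoter, so the heterozygotes that serve as controls also carry Cre and a recombined allele. Cells were released by collagenase perfusion on postnatal day 14 and sorted by fluorescence, and poly(A) RNA was sequenced. The gate of the sort and the share of cells with recombined alleles are not given in the sources used here.

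ErbB proteins are receptor tyrosine kinases that signal as pairs. HB-EGF (from Hbegf) and transforming growth factor alpha (from Tgfa) are made as membrane-bound precursors, are shed by metalloproteases and bind EGFR, and HB-EGF also binds ERBB4. Neuregulin-1 binds ERBB3 and ERBB4, and ERBB2, which has no known ligand of its own, is the preferred partner of the other receptors. In the heart, neuregulin-1 released by endothelial and endocardial cells acts on ERBB4 and ERBB2 of cardiomyocytes, a route needed for ventricular trabeculation, for postnatal cardiomyocyte growth and for maintenance of the adult muscle.

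The labels and the cell type were checked first. Actn2 was at 1145 to 1286 CPM (counts scaled to a library of 1e+06, with TMM factors) in the 5 knockouts and at 2677 to 3474 CPM in the 5 heterozygotes, apart between the groups as the labels say (-1.39 ± 0.0910 SE on the log2 scale, edgeR adjusted p 3.48e-07). Total counts ran from 8086656 to 25237696 per library, the highest being heterozygote 1. The 8 cardiomyocyte markers summed to 98680 to 122540 CPM in the heterozygote and 93810 to 118710 CPM in the knockout, with Tnni3 called lower in the knockout. Markers of other cells were present at lower levels. The 8 endothelial markers, all detected, summed to 445 to 665 CPM in the heterozygote and 284 to 488 CPM in the knockout, and 2 of them (Egfl7 and Cldn5) were called lower in the knockout. The 7 fibroblast markers summed to 119 to 196 and 111 to 230 CPM, and the 7 leukocyte markers to 11.97 to 34.9 and 7.70 to 10.5 CPM, with Csf1r called lower in the knockout. Of 6 smooth-muscle and pericyte markers, Cspg4 alone was called, and it was higher in the knockout. The 4 epicardial markers summed to 3.56 to 19.5 and 3.96 to 7.47 CPM. The 7 markers of Schwann cells and neural crest glia, cells in which Erbb3 is also active, summed to 2.997 to 4.72 and 3.51 to 6.39 CPM, with 1 of them above the filter and none called. In RNA of sorted cells, a change in the share of another cell type and a change of RNA per cell cannot be told apart.

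Of the 9 genes, 6 passed the filter on low counts and were tested, and 3 of these were called higher in the knockout (edgeR's quasi-likelihood test, Benjamini-Hochberg adjusted p under 0.05): the ligand genes Hbegf and Tgfa and the receptor gene Erbb2. Over all 11870 tested genes 18.9% were called in either direction, 10.2% higher and 8.64% lower. Erbb3, Erbb4 and Errfi1 did not pass. The median log2 fold change of the 6 tested genes was 0.46, beside 0.0023 over all tested genes. Egfr, Nrg1 and Nrg4 had at most 25 counts in any library and were not tested.

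Promoter sequence is shown for Erbb2 and Tgfa, both called higher, as a description only. The part of these sequences in the changes was not tested. Each is the 250 bases before the RefSeq transcript start, on the plus strand of GRCm38.p6, for Erbb2 at chr11:98412234-98412483 and for Tgfa at chr6:86194972-86195221. Capitals mark matches on either strand to the GC box (GGGCGG), the TEAD motif (GGAATG), the AP-1 motif (TGANTCA), the cAMP-response element core (TGACG), the TATA box (TATAAA), the CCAAT box (CCAAT) and the CArG box of serum response factor.
Erbb2: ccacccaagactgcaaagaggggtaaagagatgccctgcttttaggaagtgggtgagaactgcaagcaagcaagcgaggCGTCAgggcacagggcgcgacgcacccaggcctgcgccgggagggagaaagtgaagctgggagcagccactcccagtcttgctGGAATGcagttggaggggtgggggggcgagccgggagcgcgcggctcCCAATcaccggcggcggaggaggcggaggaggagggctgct
Tgfa: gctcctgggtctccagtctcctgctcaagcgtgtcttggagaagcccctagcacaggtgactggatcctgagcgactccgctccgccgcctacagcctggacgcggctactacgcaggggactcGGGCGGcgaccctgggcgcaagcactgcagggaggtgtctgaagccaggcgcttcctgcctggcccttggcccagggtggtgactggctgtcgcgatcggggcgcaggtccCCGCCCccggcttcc

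The Erbb2 window held a match to the TEAD motif, to the CCAAT box and, on the minus strand, to the cAMP-response element core (1 each), and no GC box. The Tgfa window held 2 GC boxes, 1 of them on the minus strand, and none of the other motifs. Over 32851 RefSeq promoter windows of the same length, 32.7% held a GC box, 12.6% the TEAD motif, 33.8% the CCAAT box, 17.8% the cAMP-response element core, 6.75% the AP-1 motif, 12.4% the TATA box and 1.47% the CArG box. G and C made up 66.0% of the Erbb2 window and 69.2% of the Tgfa window. Of the 9 genes, 6 had an entry in the promoter table, and Hbegf, Erbb3 and Nrg1 had none. Errfi1, which was not called, held 1 TEAD motif in a window and none of the other motifs there. Another Errfi1 window held 3 GC boxes, 2 cAMP-response element cores, 1 TATA box and 1 CCAAT box. Egfr, not tested, held 1 GC box, and the windows of Erbb4 and Nrg4 held none of the motifs.

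Hbegf, the precursor of heparin-binding EGF-like growth factor, lies on chromosome 18 of mm10 at 36504927 to 36515805, minus strand, with 6 exons. It was at 30.5, 32.2, 18.2, 23.8 and 30.6 CPM in heterozygotes 1 to 5. In knockouts 1 to 5 it was at 76.0, 54.8, 60.5, 42.8 and 32.2 CPM. Every knockout lay above every heterozygote, but by a narrow margin, since knockout 5 (32.20 CPM) and heterozygote 2 (32.17 CPM) were almost level. The other 4 knockouts lay at 42.8 CPM or above. The means were 27.0 ± 5.91 and 53.2 ± 16.8 CPM (SD, n = 5 each), a 1.96-fold rise (0.97 ± 0.210 SE on the log2 scale, edgeR adjusted p 0.00516). Among all tested genes, 3.09% had a larger log2 fold change, and 8.41% lay wholly higher in the knockout as Hbegf did, with 6.32% wholly lower. Leaving out any single animal (10 fits) did not end the call.

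Tgfa (chromosome 6, 86195251 to 86275449, plus strand, 6 exons) was a low-level gene with the largest fold change of the set. It was at 1.43, 0.123, 1.54, 3.66 and 2.46 CPM in heterozygotes 1 to 5, the second value being 1 read. In knockouts 1 to 5 it was at 3.33, 2.83, 4.39, 5.34 and 8.83 CPM. The groups overlapped, since heterozygote 4 lay above knockouts 1 and 2, and knockout 5 was the highest library. The means were 1.84 ± 1.31 and 4.94 ± 2.38 CPM (SD, n = 5), a 2.71-fold rise (1.44 ± 0.475 SE on the log2 scale, edgeR adjusted p 0.0480). This call was lost without any 1 of heterozygotes 1, 2, 3 and 5 or knockouts 1, 3, 4 and 5, with adjusted p-values up to 0.143, and held without heterozygote 4 (0.0191) and without knockout 2 (0.0446).

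Knockout 5 ranked lowest of its group in Hbegf and highest in Tgfa. Reads of Hbegf per kilobase of exon were 6.49 times those of Tgfa in that library and 14.3 to 40.6 times in the other knockouts. In the heterozygotes the ratio ran from 11.5 to 467, the highest value resting on the single Tgfa read of heterozygote 2. Knockout 5 was also the only knockout with more than traces of Xist, the RNA of the inactive X chromosome in females (50.8 CPM). Heterozygotes 3 and 5 had 48.1 and 42.8 CPM of it, and the other 7 libraries at most 0.222 CPM. With those 3 libraries marked by a covariate, an alternative chosen after seeing the data, Hbegf (adjusted p 0.00761), Tgfa (0.0348) and Erbb2 (0.0403) stayed above the heterozygote and below the threshold of 0.05.

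The remaining ligand genes of the set were near the limit of detection. Nrg1, which encodes neuregulin-1 (chromosome 8, 31818028 to 31918203, minus strand), had 0, 4, 2, 19 and 3 counts in heterozygotes 1 to 5 and 5, 11, 6, 4 and 2 counts in knockouts 1 to 5, a sum of 28 in each group. The 0 in heterozygote 1 allows a level of up to 0.126 CPM (3 counts). Heterozygote 4, with 2.11 CPM against at most 0.491 CPM in the other heterozygotes, also had the highest sums among the heterozygotes for endocardial (56.9 CPM against 15.4 to 38.9 CPM), endothelial (665 CPM), fibroblast (196 CPM), smooth-muscle and pericyte (280.1 CPM) and epicardial (19.5 CPM) markers. Its leukocyte sum (17.8 CPM) lay below that of heterozygote 3 (34.9 CPM). Its sum for Schwann cells and neural crest glia (2.997 CPM) was the lowest of the heterozygotes. The part of these cells in the Nrg1 value was not tested. The gene model used for counting has 2103 exon bases, 26.7% of the exon bases of protein-coding Nrg1 transcripts in GENCODE M21, so reads in Nrg1 exons outside the model were not counted. Nrg4, which encodes a ligand of ERBB4 (chromosome 9, 55220222 to 55283625, minus strand), had 12, 4, 3, 2 and 7 counts in the heterozygotes and 1, 0, 2, 6 and 3 in the knockouts. It shares 166 exon bases with Fbxo22, where reads are assigned to neither gene. At these counts no difference was detectable for either neuregulin gene. Without the filter the log2 fold changes were -0.27 (SE 0.835, adjusted p 0.873) for Nrg1 and -1.12 (SE 0.724, adjusted p 0.364) for Nrg4.

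**Figure D1:**
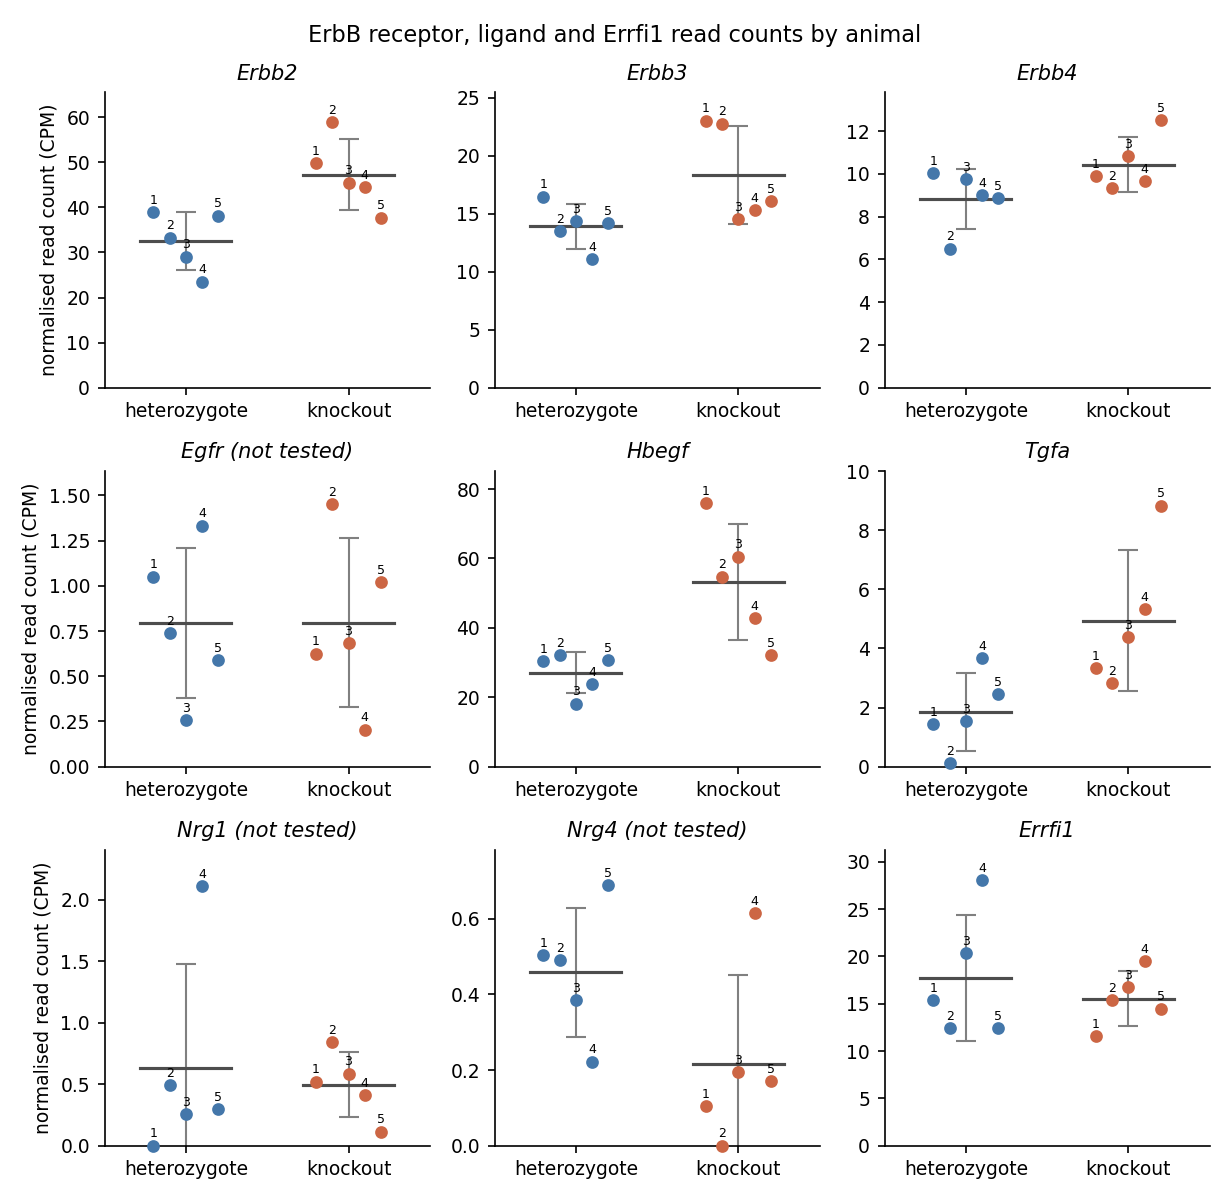
Normalised read counts (vertical axis, CPM, starting at 0 and scaled per panel) of the 9 genes in heterozygote (blue) and knockout (orange) animals; points are animals with their replicate number, horizontal lines are means and bars are SD over 5 animals. Hbegf is apart between the groups by the gap from 32.17 to 32.20 CPM, Erbb2 and Tgfa overlap in a few animals, and Egfr, Nrg1 and Nrg4 stay below 2.2 CPM.

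Among the receptors, Erbb2 (chromosome 11, 98412484 to 98437716, plus strand, 27 exons) was at 39.0, 33.3, 29.1, 23.5 and 38.2 CPM in heterozygotes 1 to 5. It was at 49.8, 59.0, 45.5, 44.4 and 37.7 CPM in knockouts 1 to 5. Knockout 5 lay below heterozygotes 1 and 5, and the other 4 knockouts lay above every heterozygote. The means were 32.6 ± 6.46 and 47.3 ± 7.83 CPM (SD, n = 5), a 1.44-fold rise (0.53 ± 0.148 SE on the log2 scale, edgeR adjusted p 0.0224). The call was lost without heterozygote 3 (adjusted p 0.0525) and without knockout 2 (0.0646). Erbb2 shares 9 exon bases with 1810046J19Rik, a gene on the opposite strand.

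Erbb3, which encodes a neuregulin receptor with little kinase activity (chromosome 10, 128569368 to 128589501, minus strand, 28 exons), was at 16.5, 13.5, 14.4, 11.1 and 14.2 CPM in the heterozygotes. In knockouts 1 to 5 it was at 23.01, 22.8, 14.5, 15.3 and 16.1 CPM. Knockouts 1 and 2 stood above all other animals, while knockouts 3 to 5 lay inside the heterozygote range. The difference did not pass over all genes (0.39 ± 0.164 SE on the log2 scale, edgeR adjusted p 0.114). It passed with scaling by library totals alone (0.0442).

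Erbb4, which encodes the neuregulin receptor with an active kinase (chromosome 1, 68039966 to 69108059, minus strand, 27 exons), was at 10.0, 6.51, 9.74, 8.99 and 8.86 CPM in the heterozygotes and at 9.89, 9.32, 10.8, 9.65 and 12.5 CPM in the knockouts. The groups overlapped and no difference was called (0.24 ± 0.156 SE on the log2 scale, edgeR adjusted p 0.317). Egfr, which encodes a receptor of HB-EGF and transforming growth factor alpha (chromosome 11, 16752203 to 16913907, plus strand), had 2 to 25 counts in the heterozygotes. It had 2 to 19 in the knockouts, and the sums were 51 and 52. Its level was 0.793 ± 0.415 CPM in the heterozygote and 0.796 ± 0.466 CPM in the knockout (SD, n = 5). Without the filter its log2 fold change was 0.01 (SE 0.511, adjusted p 0.993), so changes as large as the rise of Hbegf lay within 2 standard errors of the estimate. Egfr was thus at the edge of detection in either group, with a gene model that covers 58.8% of its GENCODE exon bases. Erbb4, whose product also binds HB-EGF, had means of 8.83 and 10.4 CPM in the heterozygote and the knockout.

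Levels of different genes were compared as RPKM, the CPM divided by the exon length of the table in kilobases. The 4 receptor genes summed to 12.2 ± 1.77 RPKM in the heterozygote and 16.6 ± 2.29 RPKM in the knockout (SD, n = 5), with the highest heterozygote at 14.4 and the lowest knockout at 14.6. Erbb2 made up 53.2% ± 4.22 of this sum in the heterozygote and 56.9% ± 3.51 in the knockout. Erbb3 made up 28.5% ± 1.44 and 27.3% ± 3.08, Erbb4 17.2% ± 3.34 and 15.1% ± 3.48, and Egfr 1.05% ± 0.667 and 0.731% ± 0.385. The ranges of the groups overlapped for each of the 4 shares. The order Erbb2, Erbb3, Erbb4, Egfr was the same in all 10 animals. These levels rest on gene models that cover 99.7% of the GENCODE exon bases of Erbb2, 66.8% of Erbb3, 35.2% of Erbb4 and 58.8% of Egfr.

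**Figure D2:**
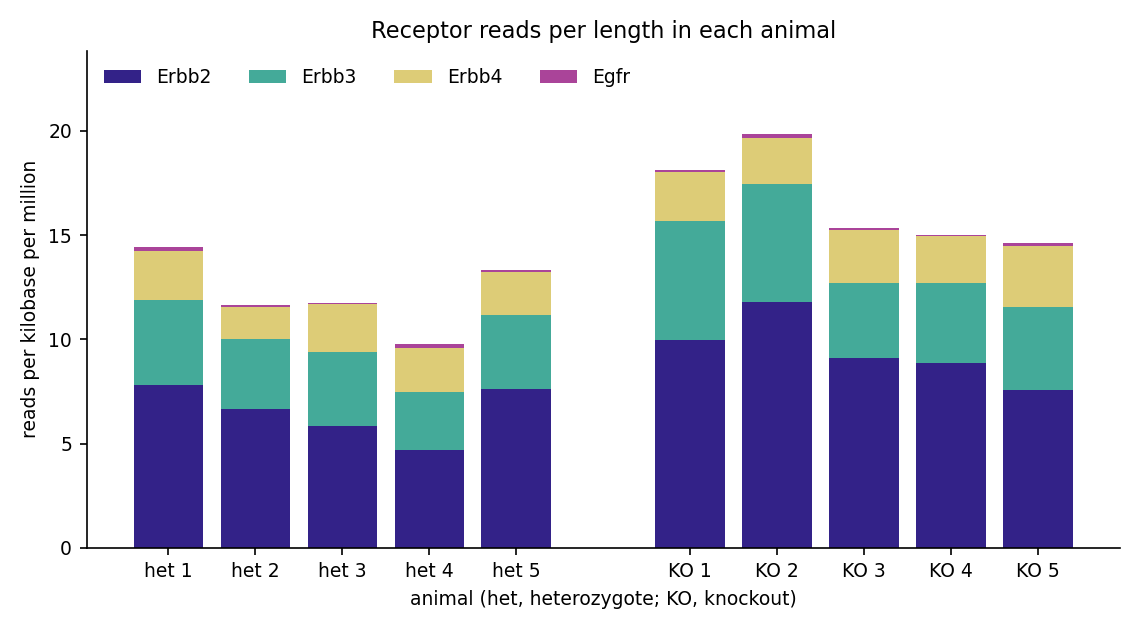
Stacked bars give the RPKM (vertical axis) of Erbb2, Erbb3, Erbb4 and Egfr in each of the 10 animals (horizontal axis). Erbb2 is the largest part of every bar, Egfr is barely visible, and the knockout bars reach 14.6 to 19.9 against 9.79 to 14.4 in the heterozygotes.

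Over the whole set, Hbegf had the highest level per length in both groups, at 11.4 ± 2.49 RPKM in the heterozygote and 22.4 ± 7.06 RPKM in the knockout (SD, n = 5). In the heterozygote Erbb2 (6.53 ± 1.29 RPKM) and Errfi1 (5.87 ± 2.20 RPKM) followed, and the ranges of neighbours in this order overlapped. Within animals, Hbegf was above Erbb2 in all 5 heterozygotes (1.32 to 2.12 times), and Erbb2 was above Errfi1 in 3 of 5 (0.506 to 1.86 times). In the knockout Hbegf, Erbb2 (9.46 ± 1.57 RPKM) and Errfi1 (5.15 ± 0.969 RPKM) did not overlap with each other, while Errfi1 overlapped with Erbb3 (4.56 ± 1.04 RPKM) and was above it in 3 of 5 animals. Erbb3 and Erbb4 did not overlap in either group. Tgfa followed Erbb4 with 0.436 ± 0.311 and 1.17 ± 0.562 RPKM. In the heterozygote its range overlapped with that of Nrg1 (0.2997 ± 0.402 RPKM), and in the knockout it did not (0.235 ± 0.126 RPKM).

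Errfi1, also known as Mig6, is induced by ErbB signalling and inhibits the receptors in turn (chromosome 4, 150855091 to 150868880, plus strand). It was at 15.4, 12.4, 20.4, 28.1 and 12.4 CPM in heterozygotes 1 to 5 and at 11.6, 15.4, 16.8, 19.5 and 14.5 CPM in knockouts 1 to 5. The knockouts lay inside the heterozygote range except for knockout 1 below it. No difference was called (-0.19 ± 0.219 SE on the log2 scale, edgeR adjusted p 0.608), and without heterozygote 4 the log2 fold change was 0.04.

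The rest of the pathway was described from 5 lists, chosen with earlier results of these data known. Of the 7 other EGF-family ligand genes, only Egf and Btc passed the filter. Egf, the founding ligand of the family, fell from 5.03 ± 1.51 to 2.41 ± 0.317 CPM (SD, n = 5; -1.07 ± 0.239 SE on the log2 scale, edgeR adjusted p 0.00612), with 1.95 to 2.83 CPM in the knockouts and 3.32 to 7.06 CPM in the heterozygotes. It shares exon bases with 6330410L21Rik. Btc, which encodes betacellulin, was at 2.31 ± 0.730 and 2.67 ± 0.634 CPM (adjusted p 0.664). Areg, Epgn, Nrg2 and Nrg3 had at most 10 counts in any library, and Ereg had 0.

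Of 16 genes for ligand shedding and for partners of the receptors, 15 were tested, with a median log2 fold change of 0.19. Of these, 6 were called higher and 1 lower, beside 10.2% and 8.64% of all tested genes. Cd44, a surface receptor that can present heparin-binding ligands, rose from 17.9 ± 5.32 to 52.2 ± 10.9 CPM (1.55 ± 0.196 SE on the log2 scale, edgeR adjusted p 8.98e-05). Adam9, a metalloprotease, rose from 64.3 ± 6.23 to 113 ± 17.1 CPM (0.81, adjusted p 0.000232). Rhbdf2, which encodes iRhom2, a cofactor of ADAM17, rose from 16.9 ± 3.37 to 32.2 ± 5.83 CPM (0.93, adjusted p 0.00119). Hsp90aa1, 1 of the HSP90 chaperone genes, whose proteins stabilise ERBB2, rose from 64.6 ± 14.7 to 103 ± 15.7 CPM (0.67, adjusted p 0.00587). The more abundant HSP90 gene of the list, Hsp90ab1, was at 913 ± 76.9 and 916 ± 34.9 CPM (0.0049, adjusted p 0.975), and the co-chaperone gene Cdc37 was not called (-0.20, adjusted p 0.257). Rhbdf1 and Erbb2ip were the other 2 called higher, and the tetraspanin gene Cd9, whose product associates with the HB-EGF precursor, was called lower (-0.67, adjusted p 0.0248). The sheddase genes Adam10 (0.19, adjusted p 0.324) and Adam17 (0.22, adjusted p 0.309) were not called. Without knockout 3 the list had 4 calls in place of 7.

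All 30 genes of the signal relay below the receptors were tested, with a median log2 fold change of 0.03. Calls were 8 higher and 1 lower, beside 10.2% and 8.64% of all tested genes. Src, a tyrosine kinase gene, rose from 1.70 ± 0.370 to 4.69 ± 1.38 CPM (1.48 ± 0.266 SE on the log2 scale, edgeR adjusted p 0.00147). Pdpk1 (0.47, adjusted p 0.00406) and Pik3ca (0.51, adjusted p 0.00481), which encode kinases upstream of AKT, rose, and Akt1 fell from 309 ± 85.4 to 190 ± 19.6 CPM (-0.70, adjusted p 0.00618). The other genes called higher were Gab1, Ptpn11, Map2k1, Sos1 and Nras. The adaptor gene Grb2 was at 118 ± 6.97 and 121 ± 3.01 CPM (adjusted p 0.797). The 9 calls became 4 without knockout 2, 5 without knockout 3, 4 or 5, and 6 to 8 without any other single animal. Calls were 6 with RLE scaling or without the filter, 10 with library totals alone and 11 with DESeq2.

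All 20 genes of feedback inhibition and receptor turnover were tested, with a median log2 fold change of 0.23. Calls were 5 higher and 1 lower, beside 10.2% and 8.64% of all tested genes. Cblb, a ubiquitin ligase gene of the Cbl family, rose from 16.2 ± 2.58 to 25.5 ± 4.86 CPM (0.65 ± 0.155 SE on the log2 scale, edgeR adjusted p 0.00902), and no single animal left out ended this call. Lrig1 (0.49, adjusted p 0.0318), whose product restrains ErbB receptors and whose exons overlap those of Slc25a26, Hgs (0.34, adjusted p 0.0325), an endosomal sorting gene, and Spry4 (0.55, adjusted p 0.0387), an inhibitor of the ERK cascade, rose but lost their calls when single animals were left out (in 6, 5 and 6 of 10 fits). Eps15 was also called higher and Stub1 lower. The 6 calls became 1 without knockout 4, 2 without heterozygote 1, heterozygote 5 or knockout 3, and 3 without heterozygote 3 or knockout 2. Without any other single animal they became 4 or 5.

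Of 20 immediate early and ERK target genes, 16 were tested, with a median log2 fold change of -0.0022. Of these, 2 were called higher and 3 lower, beside 10.2% and 8.64% of all tested genes. Etv5, an ETS-family transcription factor gene that responds to receptor tyrosine kinases, rose from 21.1 ± 6.27 to 57.3 ± 4.204 CPM (1.44 ± 0.178 SE on the log2 scale, edgeR adjusted p 8.02e-05). The knockouts ran from 51.5 to 61.8 CPM and the heterozygotes from 11.1 to 26.7 CPM. Klf4 fell from 25.8 ± 7.71 to 13.2 ± 2.12 CPM (-0.97, adjusted p 0.00333). Ier2 (-0.58, adjusted p 0.0437) and Junb (-0.81, adjusted p 0.0459) also fell, but lost their calls in 7 and 8 of the 10 fits without a single animal. Ier5 rose (0.89, adjusted p 0.0492), but heterozygote 3 (82.3 CPM) lay above knockouts 2, 4 and 5 (57.7, 64.4 and 59.9 CPM). The Ier5 call was not followed through the fits without a single animal. Fos was at 131 ± 85.6 and 64.2 ± 32.5 CPM and Egr1 at 69.8 ± 36.3 and 40.8 ± 19.4 CPM, both with wide spreads and no call (adjusted p 0.147 and 0.178). The 5 calls became 2 without heterozygote 1 or 2 or knockout 1, 2, 4 or 5, became 3 without knockout 3, and were 3 with DESeq2. They were 4 without heterozygote 3 or 5 and 6 without heterozygote 4.

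**Figure D3:**
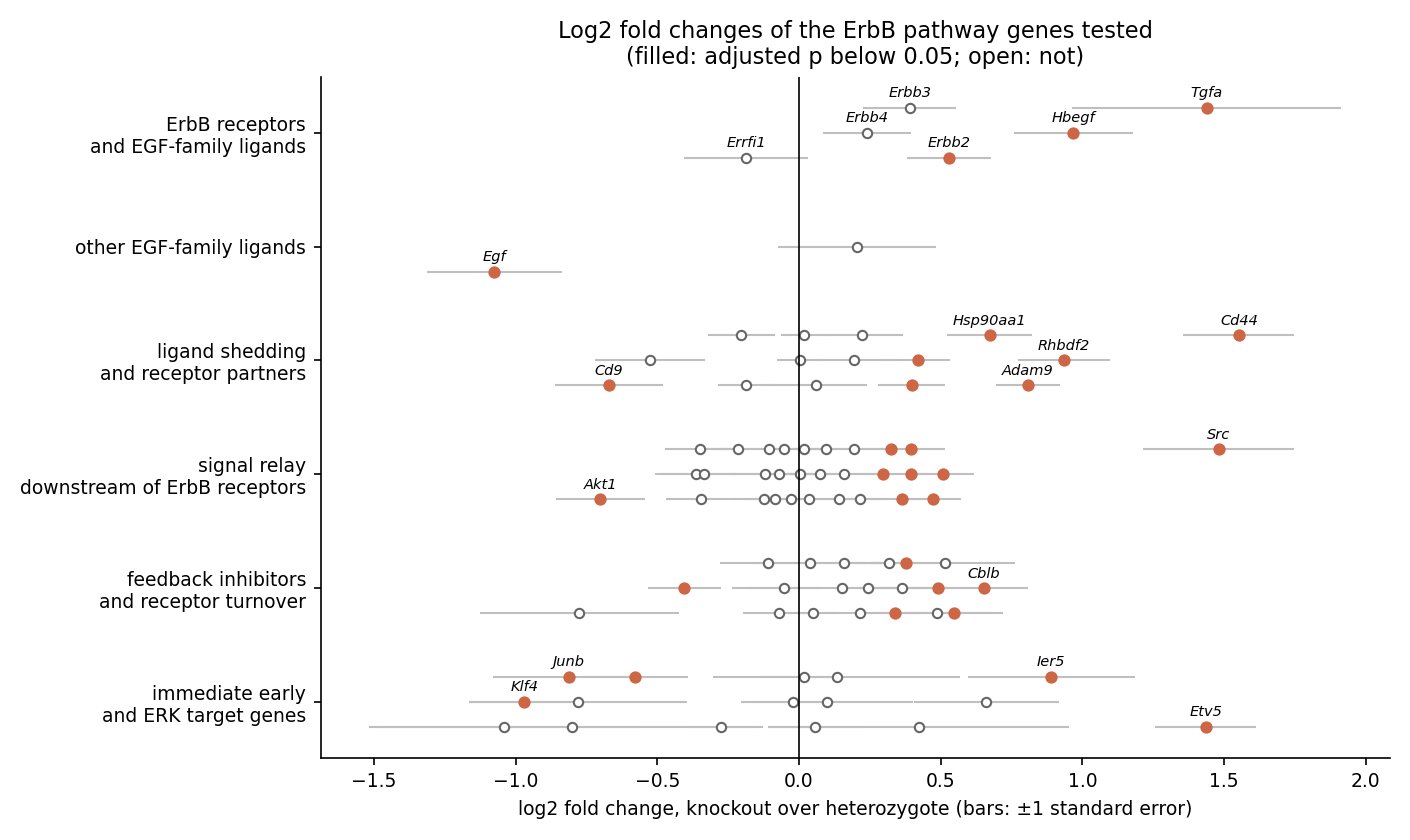
Log2 fold changes (horizontal axis, knockout over heterozygote) with 1 standard error for every tested gene of the set and of the 5 pathway lists (rows); filled points were called and open points were not. Tgfa, Cd44, Src and Etv5 lie at the right edge between 1.44 and 1.55, and Egf lies farthest left among the called genes at -1.07.

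The endothelial markers moved with the genotype beside these results, and most tested markers of several other cells were lower too. The endothelial log2 fold changes were all below 0 (8 of 8, median -0.42), while 50.3% of all tested genes were above 0. The summed endothelial level was 537 ± 87.7 CPM in the heterozygote and 391 ± 82.3 CPM in the knockout (SD, n = 5), with knockouts 2 and 4 inside the heterozygote range. Below 0 were also 4 of 4 leukocyte (median -0.87), 3 of 3 epicardial (-0.23), 3 of 4 endocardial (-0.49) and 5 of 6 smooth-muscle and pericyte markers (-0.35). Fibroblast markers were split, with 3 above and 3 below 0. Cardiomyocyte markers were also mostly below 0, by less (7 of 8, median -0.096), and only Tnni3 was called. Only the endothelial markers were fitted as a covariate. With the mean log2 CPM of the endothelial markers as a covariate, the log2 fold changes were 0.88 for Hbegf, 0.43 for Erbb2 and 1.41 for Tgfa. Without it they were 0.97, 0.53 and 1.44. None of the 3 then passed, with adjusted p-values of 0.0964, 0.251 and 0.268, and 876 of all tested genes were called in place of 2241. The covariate itself differed between the groups, and the SE of Erbb2 was 0.203 with it and 0.148 without it. The covariate also ended the calls of Rhbdf2, Hsp90aa1, Pdpk1, Pik3ca, Cblb, Lrig1, Hgs and Klf4, and those of Cd44, Adam9, Src, Akt1, Egf, Spry4, Etv5, Ier2 and Junb held. Errfi1 turned to a log2 fold change of 0.38 (adjusted p 0.428), and Erbb3 and Erbb4, uncalled in either fit, were at 0.30 and 0.10. The part of endothelial RNA in these results was not tested further. The 4 counts of calls in the larger pathway lists fell to 2 for shedding and partners, 2 for the relay, 1 for feedback and 3 for targets.

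**Figure D4:**
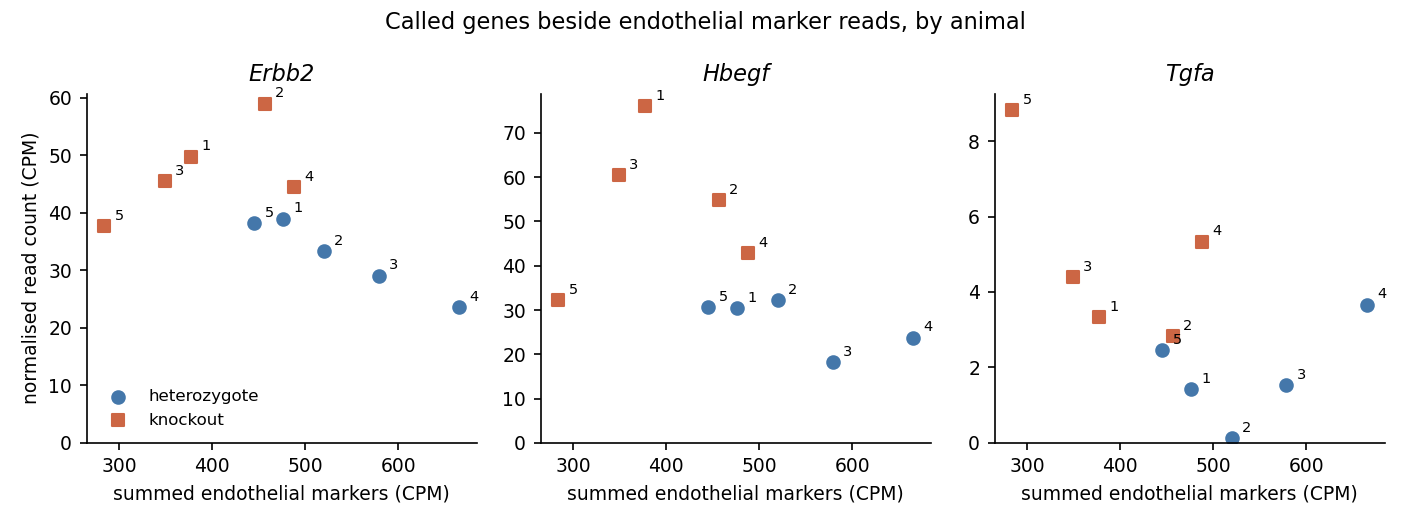
Normalised read counts (vertical axis, CPM) of Erbb2, Hbegf and Tgfa against the summed counts of 8 endothelial markers (horizontal axis, CPM) in heterozygotes (circles) and knockouts (squares), numbered by replicate. Knockouts 2 and 4, at 457 and 488 CPM of markers, lie within the heterozygote range on the horizontal axis, and knockouts 1, 3 and 5 lie below it. The part of the mix of cells in these levels was not tested.

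Hbegf was both the tested gene of the set with the smallest p and the one with the highest mean (40.1 CPM), and the genes most like it were sought among 9745 genes whose mean reached 5 CPM. Over the 10 libraries, the log2 CPM of Mlx (Pearson r = 0.961), Tmem43 (0.949) and Uba2 (0.941) lay closest, which are the highest of 9745 values and a description of these libraries. After the mean of each genotype was removed, the same values were 0.899, 0.887 and 0.912. These genes were picked for their r over these same libraries, which also favours high values after centring, and nothing is read from them. The libraries share their depth and their mix of cells with all genes. Tmem43, which encodes a nuclear membrane protein, went from 33.1 ± 2.65 to 46.2 ± 4.90 CPM (SD, n = 5), Uba2 from 53.6 ± 1.52 to 68.1 ± 4.89 CPM, and Mlx from 31.1 ± 3.36 to 38.7 ± 3.34 CPM, all smaller changes than that of Hbegf. The endothelial covariate ended the calls of all 3, and Mlx (adjusted p 0.0473 without it) also lost its call in 8 of the 10 fits without a single animal.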

How the data were processed

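The authors deposited whole-number counts of reads per gene, not normalised, made with featureCounts 1.5.1 against a UCSC annotation of build mm10, per the file headers; the submitters' processing notes name STAR 2.5.3a and Subread 1.5.2. No strand option stands in the command, so antisense overlaps cannot be parted. From 10 ng of RNA, cDNA was amplified by 8 PCR cycles, per the labels' protocols. Of 14 count columns, 10 match samples by name and 4 match none and were not used.

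Genes were kept with filterByExpr (minimum count 10, total 15), scaled with TMM and compared with edgeR 4.0.16 (quasi-likelihood F test, R 4.3.3) over 10 libraries without covariates. P-values were adjusted by Benjamini-Hochberg over 11870 genes, and a gene was called below 0.05. The SE is the log2 fold change divided by the root of F. The floor is 3 counts and covers counting error only. The procedure was tested on simulated data. The named genes are the 9 of the set, the 4 called genes with the smallest adjusted p of each list, and the 3 genes most like the leading ones; Cd9, Rhbdf1, Erbb2ip, Hsp90ab1, Cdc37, Gab1, Ptpn11, Map2k1, Sos1, Nras, Grb2, Eps15, Stub1, Ier5, Fos, Egr1, Btc, Adam10 and Adam17 were named after their values were seen. Members and lists were chosen with earlier results of these data known. Hras was matched as Hras1 by RefSeq synonyms. Replicate pairs differed by a chi-square of 10.8 to 37.5 per degree of freedom, so none was a copy. Alternatives were RLE and library-total scaling, no filter, DESeq2 1.42.0, voom of limma 3.58.1 with a weight per sample, the replicate number as a block, endothelial and Xist covariates, and leaving out each animal.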

Additional observations from a re-analysis of the deposited data

Results flagged for a closer look

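In 70 groups of 5 values (a gene, a receptor share or a total in 1 genotype), 4 had a library whose gap to its nearest neighbour exceeded 0.71 of the range of the group, and chance flags about 1 in 20 groups. Nrg1 was at 2.109 CPM in heterozygote 4 and at 0.4912 CPM in the next highest heterozygote. Src was at 2.333 CPM in heterozygote 2, with 1.665 CPM next, below the lowest knockout at 2.603 CPM. Spry4 was at 31.2 CPM in knockout 4, with 18.39 CPM next, and without that animal its log2 fold change was 0.35 in place of 0.55 (edgeR adjusted p 0.0825). Heterozygote 1 had 25237696 total counts, with 10309615 next, and without it Hbegf (adjusted p 0.0106) and Erbb2 (0.0202) were called and Tgfa (0.105) was not.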

How the results depend on the processing

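The Xist covariate was chosen after seeing the data. Hbegf, Erbb2 and Tgfa were called under RLE, library totals, no filter, DESeq2, voom, the replicate block and the Xist covariate, and under the endothelial covariate none was (log2 fold changes 0.88, 0.43 and 1.41; 0 of the set, 876 of all genes, and 2, 2, 1 and 3 genes of the shedding, relay, feedback and target lists); Errfi1 then reversed to 0.38. Leaving out single animals gave 1 to 3 calls in the set, 1699 to 2258 over all genes, and 4 to 8, 4 to 8, 1 to 5 and 2 to 6 in those lists. The ranges of log2 fold changes were 0.81 to 1.11 for Hbegf, 0.43 to 0.61 for Erbb2, 1.10 to 1.81 for Tgfa and -0.29 to 0.04 for Errfi1, which was reversed without heterozygote 4 (0.038). Library totals alone raised Erbb3 to 0.47 with a call, 4 in the set, and changed the split of all calls from 1216 higher and 1025 lower to 1684 and 760. With that scaling the highest heterozygote lay below the lowest knockout in Hbegf (30.3 and 33.7 CPM), Erbb2 (37.6 and 39.5 CPM) and Erbb4 (9.47 and 9.60 CPM). With TMM this held for Hbegf alone. The share of all genes apart in this way was not taken for library totals, so nothing is read from these gaps. The median log2 fold change over all tested genes was 0.084 with library totals and 0.0023 with TMM. Target-list calls were 3 with DESeq2 and 2 with the Xist covariate. The replicate block gave 5 relay calls in place of 9 and 2182 calls over all genes; same-numbered animals had deviations correlated at -0.0604 to 0.185, with 3 of 5 above 0.1, so pairing by number was not established, and only animals numbered 4 and 5 correlated best with their own number. Why these values moved was not tested. Of 378 combinations of 21 other named genes and settings, 315 kept direction and side of the threshold, 63 were weaker and 0 reversed. All 21 were called in the main fit, and most were named for a small adjusted p there. The tally therefore only describes genes picked for their calls in these data. Egfr, Nrg1 and Nrg4 did not pass the filter on low counts, and the parts of depth, level and gene model in this were not tested.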
